A study of Mus musculus with 24 samples.

Results

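WNT signalling in the mammary gland was followed through 10 genes, 8 of them secreted WNT ligands (Wnt2, Wnt5a, Wnt5b, Wnt6, Wnt7b, Wnt10a, Wnt10b and Wnt11) and 2 of them genes of the response, Axin2 and Lgr5. They were chosen by gene name among the array features that are not controls, which gave 12 of 55681 probes, because Axin2 and Lgr5 each had more than 1 probe. RNA of mammary tissue had been hybridised to 24 1-colour Agilent arrays, 3 mice in each of 8 groups. Female mice of 2 inbred strains were given a whole-body X-ray dose of 10 cGy (low dose ionizing radiation, LDIR) or a sham exposure at an age of 8 to 9 weeks. BALB/c glands were taken 2, 4 and 8 weeks later and SPRET/EiJ glands 4 weeks later, each time from LDIR and from sham mice. The tissue was the whole gland, so each value averaged epithelium, fat, stroma and anything taken with them, and fewer cells of a type and less RNA per cell cannot be told apart.

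WNT ligands are lipid-modified proteins that act over short distances on Frizzled receptors and the coreceptors Lrp5 and Lrp6. In the canonical branch they stop the destruction of beta-catenin, which then acts with TCF/LEF factors on target genes. Axin2 is a direct target that feeds back as a scaffold of the destruction complex, and Lgr5 is a target that encodes a receptor for R-spondins and marks stem cells in several epithelia. Wnt6, Wnt10a and Wnt10b are known in epithelium, hair follicle and fat precursor cells, where Wnt10b holds back fat cell formation, and Wnt6 and Wnt10a lie next to each other in the genome. Wnt2 and Wnt5a are made by the stroma of many organs. Wnt5a, Wnt5b and Wnt11 act mainly without beta-catenin, and Wnt7b is made by epithelia.

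Promoter sequences were at hand for 6 of the 10 genes (RefSeq, build GRCm38.p6, 9 start sites) and are those of the reference genome, not of BALB/c or SPRET/EiJ. The 250 bases before the start are shown for Wnt6 and Wnt2, the genes with a promoter that changed most with time in the comparisons that follow, and for Axin2, the standard readout of beta-catenin, with CG pairs in capitals. The Wnt6 promoter lay at chr1:74771642-74771891 on the plus strand, the Wnt2 promoter at chr6:18030446-18030695 on the minus strand and the Axin2 promoter at chr11:108920099-108920348 on the plus strand.
Wnt6: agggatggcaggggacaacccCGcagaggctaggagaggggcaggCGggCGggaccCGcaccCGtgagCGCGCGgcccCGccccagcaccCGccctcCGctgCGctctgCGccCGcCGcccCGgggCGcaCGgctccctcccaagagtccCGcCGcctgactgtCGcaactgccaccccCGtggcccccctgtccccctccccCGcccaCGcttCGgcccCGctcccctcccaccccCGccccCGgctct
Wnt2: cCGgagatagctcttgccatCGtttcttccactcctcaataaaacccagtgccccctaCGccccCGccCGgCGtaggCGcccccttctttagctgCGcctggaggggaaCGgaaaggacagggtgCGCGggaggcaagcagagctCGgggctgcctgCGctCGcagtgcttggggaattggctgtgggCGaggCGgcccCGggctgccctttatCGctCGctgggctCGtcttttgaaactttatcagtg
Axin2: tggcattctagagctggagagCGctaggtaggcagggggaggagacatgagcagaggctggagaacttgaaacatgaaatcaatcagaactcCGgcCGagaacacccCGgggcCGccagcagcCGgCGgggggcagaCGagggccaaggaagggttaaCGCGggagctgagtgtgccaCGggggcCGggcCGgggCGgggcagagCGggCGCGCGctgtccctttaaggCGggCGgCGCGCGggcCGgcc
These 3 stretches held 28, 20 and 24 CG pairs. The median over all 32851 promoters of this length was 6, and 17.9% held 20 or more. The TCF/LEF motif was searched as CTTTGAT and as CTTTGAA on both strands, and neither was in these 3 stretches, which says only that these letters are absent from the window. CTTTGAT was present in 3.21% and CTTTGAA in 4.46% of all promoters. Among the 9 promoters of the genes described here, CTTTGAT occurred once for Wnt11 and once for Wnt5b, the gene that differed most between the strains, at the most downstream of 3 Wnt5b starts (chr6:119449387-119449636, minus strand), shown with the motif in capitals.
Wnt5b: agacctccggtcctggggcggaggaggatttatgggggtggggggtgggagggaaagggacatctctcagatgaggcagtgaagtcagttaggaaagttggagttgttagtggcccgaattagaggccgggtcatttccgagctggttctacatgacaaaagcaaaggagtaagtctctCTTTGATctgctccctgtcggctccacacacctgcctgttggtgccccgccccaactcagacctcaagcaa

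Levels are log2 intensities with the array's own 75th percentile set to 0, and levels of different probes are not set against each other. Each gene was followed by its brightest probe, and each of these 10 stood well above background on 24 of 24 arrays. The second Axin2 probe (mm9 chr11:108803927-108803986) was well above background on 22 arrays, and the second Lgr5 probe (mm9 chr10:114900686-114900745) on 0 arrays, so the latter gave no level. Over all probes, 57.2% to 72.7% were well above background on an array. The lowest share belonged to array C of the SPRET/EiJ LDIR group. Its median negative control intensity (3.8) and that of array A of the BALB/c sham group at 8 weeks (4.9) exceeded those of all other arrays (1.7 to 3). Markers of luminal (10 genes) and basal epithelium (9 genes), fibroblasts (8 genes) and white adipocytes (7 genes) were all above background on all 24 arrays, so the defining markers of the labelled tissue were present.

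Lymphocyte markers set 3 arrays apart, namely array A of the BALB/c sham group at 8 weeks, array B of the BALB/c LDIR group at 8 weeks and array A of the SPRET/EiJ LDIR group. The mean level of 7 lymphocyte genes was 3.15, 3.61 and 3.09 on them, and -2.41 to -1.30 on the other 21 arrays. The same 3 arrays had the lowest adipocyte (4.49 to 5.32, beside 6.03 to 6.96) and fibroblast means (3.79 to 4.16, beside 4.41 to 5.73). Of the genes described here, Wnt5a was lowest on these 3 arrays (-0.02 to 0.18, beside 1.05 to 2.48 on the others). Results that rest on them are given with and without them, and the part of the lymphocyte markers in the results was not tested.

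**Figure D1:**
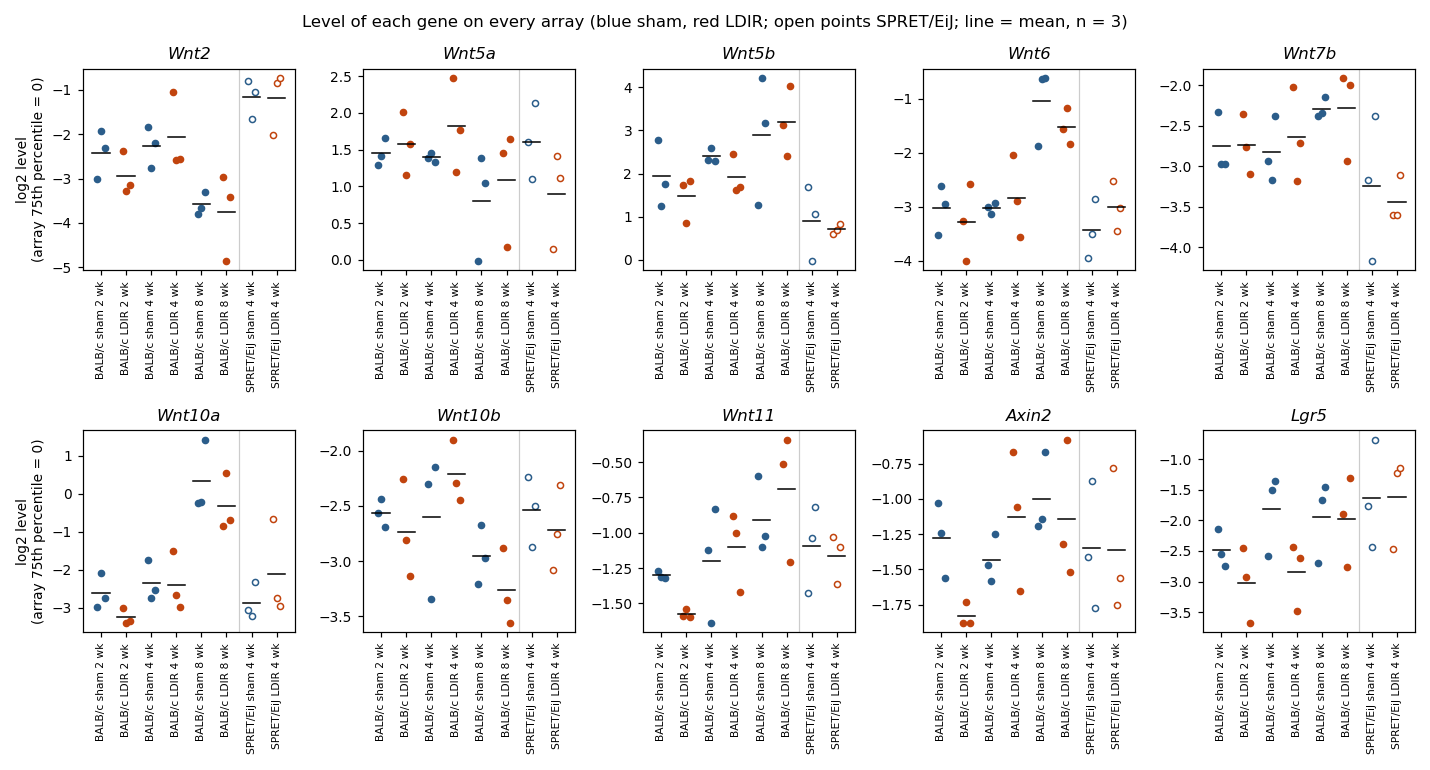
Log2 level (vertical axis, 0 is the array's 75th percentile) of the 10 genes on each of the 24 arrays, by group (horizontal axis). Points are single arrays, blue for sham and red for LDIR, open for SPRET/EiJ, and lines are means of 3 arrays. Wnt10a and Wnt6 stood highest and Wnt2 lowest in the BALB/c groups at 8 weeks.

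The clearest differences among these genes lay between times, at 8 against 4 weeks in BALB/c. Wnt10a and its neighbour Wnt6 rose and Wnt2 fell, both in sham and in LDIR mice, which share no array. In sham mice 3 of 10 genes passed the thresholds used for time and LDIR (unadjusted p under 0.05 with a change over 1.5-fold), beside 13.7% of all probes. In LDIR mice 5 of 10 passed, beside 20.9% of all probes. Between 2 and 4 weeks in sham mice 0 of 10 genes passed in limma and 0 had an unadjusted p under 0.05, where 3.04% of all probes passed.

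Wnt10a (probe at mm9 chr1:74850633-74850692) measured -1.75, -2.75 and -2.53 on the sham arrays A, B and C at 4 weeks and -0.24, -0.21 and 1.42 at 8 weeks. The LDIR arrays gave -1.51, -2.66 and -2.99 at 4 weeks and -0.85, 0.54 and -0.69 at 8 weeks. All 6 arrays of 8 weeks lay above all 6 of 4 weeks, and above the 6 of 2 weeks (-3.40 to -2.09). The rise in sham mice was 2.67 ± 0.55 (SE), 6.36-fold, with a 95% interval of 1.34 to 4.00 (limma, adjusted p = 0.142 over all probes). In LDIR mice it was 2.06 ± 0.52, 4.16-fold, with an interval of 0.81 to 3.31 (adjusted p = 0.104).

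Wnt6 (mm9 chr1:74831461-74831520), whose probe lies on the same chromosome before that of Wnt10a, measured -3.00, -3.13 and -2.94 on the sham arrays A, B and C at 4 weeks. At 8 weeks the sham arrays gave -1.87, -0.63 and -0.61. The LDIR arrays gave -2.05, -2.89 and -3.57 at 4 weeks and -1.56, -1.17 and -1.84 at 8 weeks. No array of 4 weeks reached the level of any array of 8 weeks. Wnt6 rose by 1.99 ± 0.39, 3.97-fold, in sham mice (interval 1.03 to 2.95, adjusted p = 0.137) and by 1.31 ± 0.41, 2.48-fold, in LDIR mice (0.32 to 2.30, adjusted p = 0.143). The LDIR value did not pass without the lymphocyte-rich array B of 8 weeks (1.14).

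Wnt2 (mm9 chr6:17938994-17939053) measured -1.85, -2.77 and -2.19 on the sham arrays at 4 weeks and -3.79, -3.66 and -3.30 at 8 weeks. The LDIR arrays gave -1.05, -2.58 and -2.56 at 4 weeks and -2.96, -4.86 and -3.41 at 8 weeks. The groups did not overlap, and LDIR array B at 8 weeks, 1 of the 3 lymphocyte-rich arrays, was the lowest of all 24. Wnt2 fell by 1.31 on the log2 scale in sham mice (SE 0.32, interval -2.09 to -0.54, adjusted p = 0.174) and by 1.68 in LDIR mice (SE 0.62, interval -3.18 to -0.18, adjusted p = 0.181). The LDIR value did not pass without array A of 4 weeks (-1.17), without array B of 8 weeks (-1.12) or after quantile normalization (-1.42).

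With sham and LDIR arrays in 1 fit, a comparison chosen after the sham values were seen, 18.7% of all probes passed the thresholds and 13% had an adjusted p under 0.05. Of the 10 genes 4 passed, and 3 of them had an adjusted p under 0.05. Wnt10a rose 5.14-fold (log2 2.36 ± 0.40, limma, adjusted p = 0.00392), Wnt6 rose 3.14-fold (1.65 ± 0.30, adjusted p = 0.00599) and Wnt2 was 2.82-fold lower (SE 0.37 on the log2 scale, adjusted p = 0.0219). An exact permutation of the times within sham and within LDIR gave p = 0.005 for each of the 3, the smallest that its 400 arrangements allow. This value follows from the lack of overlap within both treatments and adds nothing to it. Wnt10b fell by 0.70 (SE 0.25, adjusted p = 0.0862, exact permutation p = 0.03).

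Slides were not balanced over the times. The second slide held 4 arrays of each time, but not the same treatments. They were sham array C and LDIR arrays A, B and C of 4 weeks, and sham arrays A, B and C and LDIR array A of 8 weeks. A fit to these 8 arrays with a term for treatment gave 2.19 for Wnt10a, 1.59 for Wnt6, -1.15 for Wnt2 and -0.73 for Wnt10b. Each treatment had 1 array at 1 of the times there, so this fit is no balanced control for slide. With slide as a block in the LDIR fit, which then rests on 1 array of 8 weeks, 0 of 10 genes passed (Wnt10a 1.54, Wnt6 1.28 and Wnt2 -0.90). In the fit of all 24 arrays with slide as a block, Wnt2 did not pass in sham mice either (-1.40).

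Wnt10b and Wnt5b passed at 8 against 4 weeks in LDIR mice. Wnt10b (mm9 chr15:98602209-98602268) measured -1.90, -2.29 and -2.45 on the LDIR arrays at 4 weeks and -2.88, -3.35 and -3.56 at 8 weeks, a fall of 1.05 without overlap (SE 0.26, interval -1.67 to -0.42, adjusted p = 0.101). In sham mice its change was -0.35 ± 0.38 (interval -1.28 to 0.58) with overlapping groups. Wnt5b went from 2.45, 1.61 and 1.70 to 3.13, 2.40 and 4.04 in LDIR mice (1.27 ± 0.46, adjusted p = 0.175) with overlapping groups. It did not pass without LDIR array B (1.11) or C (1.16) of 4 weeks or A (1.30) or C (0.84) of 8 weeks, and its sham change was 0.49 ± 0.73 (interval -1.29 to 2.27). The difference between the sham and the LDIR change was not tested for either gene.

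The brightest probes of the other ligands and of both genes of the response did not pass in either treatment. In the joint fit the change was -0.66 ± 0.32 for Wnt5a (95% interval -1.37 to 0.05), 0.45 ± 0.24 for Wnt7b (-0.09 to 0.99) and 0.35 ± 0.20 for Wnt11 (-0.10 to 0.80). It was 0.21 ± 0.22 for Axin2 (-0.28 to 0.70) and 0.37 ± 0.37 for Lgr5 (-0.44 to 1.17). The second Axin2 probe passed as lower in LDIR mice (-0.79 ± 0.26, adjusted p = 0.165), where the brightest gave -0.02 ± 0.36, so the 2 Axin2 probes disagreed there. Its 4-week mean in that comparison rests on 2 arrays, since 1 spot was an outlier.

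**Figure D2:**
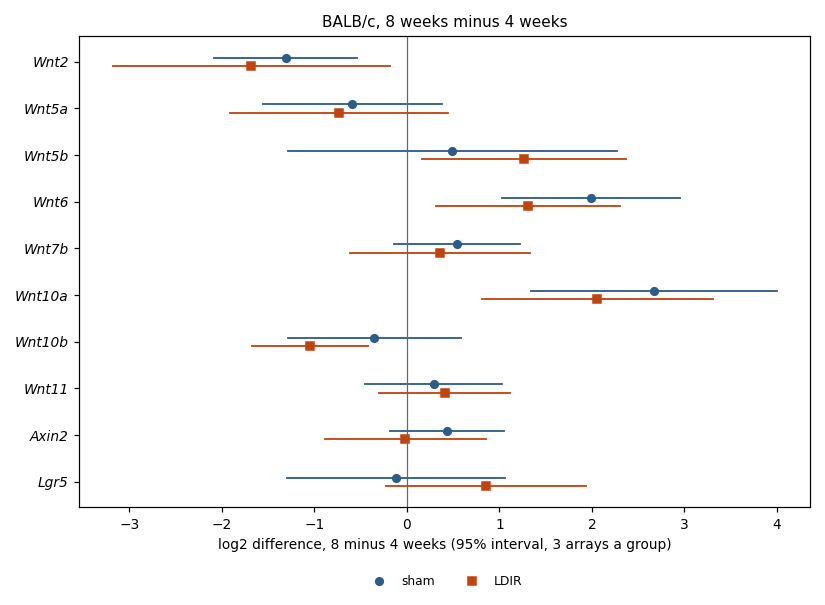
Difference between 8 and 4 weeks in BALB/c (horizontal axis, log2) for each of the 10 genes, in sham (circles) and LDIR mice (squares), with 95% intervals from limma on 3 arrays a group. The intervals of Wnt10a and Wnt6 lay above 0 and those of Wnt2 below 0 in both treatments.

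The makeup of the samples also differed between these times. Of 6 skeletal muscle genes, 5 passed as higher at 8 weeks in sham mice (median log2 change of the list 4.50, beside 0.07 over all probes) and 3 in LDIR mice (5.32, beside -0.21). Of 9 basal epithelial genes, 1 passed as higher in sham mice (7 without sham array A) and 7 in LDIR mice. Of 7 white adipocyte genes, 5 passed as lower in sham mice (4 without sham array A), and in LDIR mice 1 did. Without LDIR array B of 8 weeks, 0 adipocyte genes passed as lower and 1 as higher in LDIR mice (median -0.03, beside -0.52 with it). Of the muscle genes, 4 passed as higher in sham mice without sham array A and 6 in LDIR mice without LDIR array B. Of all probes 13.7% passed in sham and 20.9% in LDIR mice, and 19.5% and 19.7% without these arrays. The mean level of the muscle list ranged from -4.19 to -1 on sham and from -4.72 to -4.15 on LDIR arrays at 4 weeks, and from -0.53 to 2.61 and from -4.69 to 3.65 at 8 weeks.

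Some single arrays had muscle levels unlike those of their group. LDIR array B at 8 weeks had a muscle level of -4.69, as low as at 4 weeks, a lymphocyte level of 3.61, the highest of all 24 arrays, and the second highest Wnt10a level (0.54). At 2 weeks, sham array C and LDIR array A had muscle levels of 2.78 and 2.26, and Wnt10a levels of -2.73 and -3.00. The mean level of the adipocyte list ranged from 6.03 to 6.86 over the 6 arrays of 4 weeks and from 5.01 to 6.51 over those of 8 weeks. The mean level of the basal list ranged from 1.37 to 2.13 at 4 weeks and from 1.57 to 3.63 at 8 weeks. The lowest adipocyte level in BALB/c (5.01) was on LDIR array B at 8 weeks, the array with the lowest Wnt2 level. The part of the skeletal muscle, adipocyte, luminal and basal epithelial and lymphocyte markers in these changes was not tested. The fit was repeated without that array and sham array A, the 2 lymphocyte-rich arrays of 8 weeks. Then 6 of 10 genes passed, beside 21.2% of all probes. Wnt10a (2.28, adjusted p = 0.00802), Wnt6 (1.77, adjusted p = 0.00636) and Wnt2 (-1.16, adjusted p = 0.0338) passed and Wnt10b did not (-0.61). Wnt5b (1.48, adjusted p = 0.00705), Wnt7b (0.63, adjusted p = 0.0743) and Lgr5 (0.75, adjusted p = 0.124) passed there as well. Of 10 luminal epithelial genes, 4 passed there as higher (Epcam, Cldn3, Cldn7 and Elf5) and 2 as lower (Esr1 and Prlr). With all arrays 0 luminal genes passed as higher and the same 2 as lower.

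Epidermal markers were few and low throughout. Of 6 epidermal genes 2 were above background on all 24 arrays, and 0 passed at 8 against 4 weeks in either treatment. Their mean level spanned -4.96 to -3.63 at 4 weeks and -4.90 to -4.12 at 8 weeks. Of 6 hair follicle genes, 0 passed in sham mice, and 1 passed as higher and 2 as lower in LDIR mice.

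**Figure D3:**
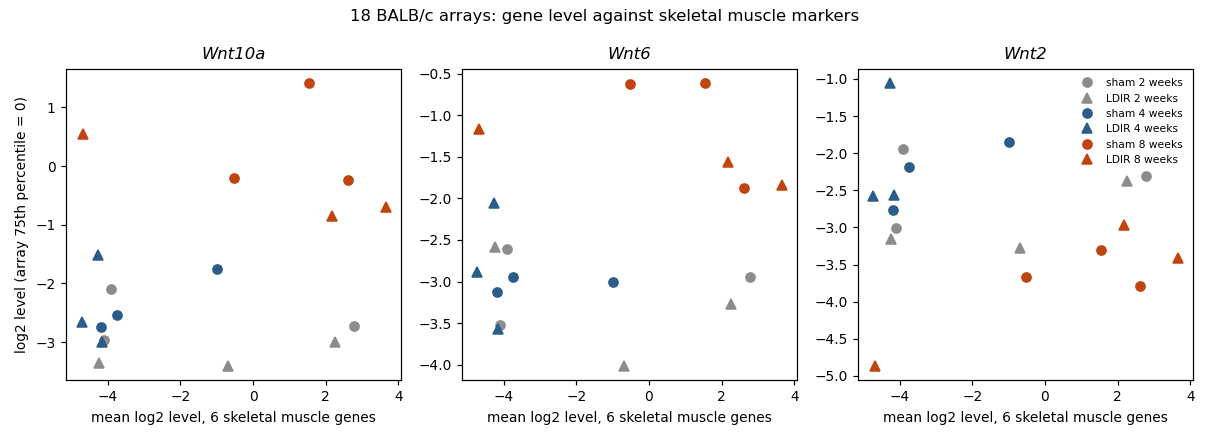
Log2 level of Wnt10a, Wnt6 and Wnt2 (vertical axes) against the mean log2 level of 6 skeletal muscle genes (horizontal axis) on the 18 BALB/c arrays, grey for 2, blue for 4 and red for 8 weeks, circles for sham and triangles for LDIR. One array of 8 weeks with a muscle level of -4.69 had Wnt10a at 0.54, and 2 arrays of 2 weeks with muscle levels over 2 had Wnt10a at -2.73 and -3.00.

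The rest of the pathway was read from 6 lists with 71 measured genes, chosen like the 10 genes with earlier results of these data known. In the joint fit of 8 against 4 weeks, 13 of the 71 were higher and 5 lower, 25.4% in all beside 18.7% of all probes. Without the 2 lymphocyte-rich arrays 20 were higher and 3 lower, 32.4% beside 21.2%. Among secreted inhibitors, which bind WNT ligands or their coreceptors, 4 of 13 were higher and 0 lower. Wif1, which binds WNT proteins directly, rose by 1.95 (3.85-fold, adjusted p = 0.0064), Sostdc1 by 1.44 (2.71-fold, adjusted p = 0.011) and Dkk3 by 0.97 (adjusted p = 0.127).

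Among 15 receptor genes, Fzd9 rose by 1.79 (3.47-fold, adjusted p = 0.025), and the coreceptor Lrp6 fell by 0.97 (adjusted p = 0.0103) and Fzd4 by 0.70 (adjusted p = 0.171). Fzd4 did not pass without the 2 lymphocyte-rich arrays (-0.28). Of 15 genes of WNT secretion and the beta-catenin core, 3 were higher and 2 lower. Dvl3, a cytoplasmic relay of Frizzled signals, fell by 1.19 (adjusted p = 0.00205), while its relative Dvl2 rose by 0.68 (adjusted p = 0.0193). The 2 scaffolds Axin1 and Apc of the destruction complex moved apart, the first higher by 0.79 (adjusted p = 0.01) and the second lower (-0.62, adjusted p = 0.0157). The factor Tcf7, which T cells also express, rose by 2.45 with overlapping groups (adjusted p = 0.1), and by 1.01 without the 2 lymphocyte-rich arrays (adjusted p = 0.0473). Apc did not pass without them (-0.58).

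Of 8 genes of R-spondins and their receptors, 3 were higher, namely Rspo1 (1.58, adjusted p = 0.121), Rnf43 (0.86, adjusted p = 0.0788) and Znrf3 (0.64, adjusted p = 0.135), the latter 2 encoding ligases that remove Frizzled receptors. Of 9 further target genes, the cell cycle gene Ccnd1 (1.22, adjusted p = 0.079) and Myc (0.94, adjusted p = 0.0284) were higher. Of the 11 remaining ligands, 1 passed, Wnt2b, which fell by 0.70 (adjusted p = 0.148). Neither Znrf3 (0.29) nor Wnt2b (-0.46) passed without the 2 lymphocyte-rich arrays.

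Between the strains the question was whether baseline levels differ in a strain more sensitive (BALB/c) and one more resistant (SPRET/EiJ) to radiogenic mammary cancer. At 4 weeks, none of the 10 genes passed the stricter strain thresholds (unadjusted p under 0.001 with a change over 1.5-fold) in limma, in sham mice or in LDIR mice, where 8.89% and 5.67% of all probes passed. An unadjusted p under 0.05 was reached by 2 of 10 genes in each treatment, beside 32.1% of all probes in sham and 25.1% in LDIR mice. An adjusted p under 0.05 was reached by 0 of 10 in sham mice, beside 18.8% of all probes, and by 1 in LDIR mice, beside 11.1%.

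Wnt5b (mm9 chr6:119382550-119382609) was the gene of that 1 call and stood higher in BALB/c. Its levels were 2.31, 2.60 and 2.28 on the BALB/c sham arrays and 1.69, -0.03 and 1.07 on the SPRET/EiJ sham arrays. The LDIR arrays gave 2.45, 1.61 and 1.70 in BALB/c and 0.61, 0.70 and 0.84 in SPRET/EiJ. The strains did not overlap within either treatment. The difference was 1.48 ± 0.43 in sham mice (2.79-fold, adjusted p = 0.0614) and 1.21 ± 0.29 in LDIR mice (2.31-fold, adjusted p = 0.045). Without the lymphocyte-rich array A of SPRET/EiJ LDIR mice the latter was 1.15 (adjusted p = 0.0583). With 1 array fewer the adjusted p thus exceeded 0.05, while the difference changed little.

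With both treatments in 1 fit, chosen after these values were seen, Wnt5b passed (1.34 ± 0.26, 2.54-fold, adjusted p = 0.002), as 1 of 10 genes beside 16.6% of all probes, while 29.2% of all probes had an adjusted p under 0.05. An exact permutation within treatments gave p = 0.005, the smallest of 400 arrangements, which follows from the lack of overlap within both treatments. Without the lymphocyte-rich SPRET/EiJ array the joint value was 1.34 (adjusted p = 0.00362). All SPRET/EiJ arrays lay on the third slide and all BALB/c arrays of 4 weeks on the first and second, so that slide and strain cannot be told apart in sham mice, in LDIR mice or in the joint fit. A fit of all 24 arrays with slide as a block, in which only the 2 BALB/c LDIR arrays of 8 weeks on that slide link the slides, gave 1.38 (adjusted p = 0.631), short of the thresholds. The array's probes follow the reference genome, and the effect of sequence differences in SPRET/EiJ, a strain of another mouse species, on these probes was not tested.

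Wnt2 stood lower in BALB/c, at -1.85, -2.77 and -2.19 against -0.81, -1.67 and -1.04 in sham mice, with no overlap (-1.09 ± 0.33, adjusted p = 0.0662). In LDIR mice the difference was -0.87 ± 0.54 with overlap (adjusted p = 0.379). In the joint fit it was -0.98 ± 0.32 (adjusted p = 0.0384, exact permutation p = 0.025), short of the strain thresholds. Lgr5 differed by -1.23 ± 0.46 in LDIR mice (adjusted p = 0.155, and -1.66 with adjusted p = 0.0322 without the lymphocyte-rich array) and by -0.19 ± 0.53 in sham mice (adjusted p = 0.828). The other 7 genes lay between -0.02 (Wnt11) and 0.61 (Wnt7b) in the joint fit, each with an interval that held 0. The second Axin2 probe differed by 0.93 ± 0.33 (interval 0.21 to 1.66, adjusted p = 0.0537), short of the strain thresholds, where the brightest gave 0.08 ± 0.23. Beside these values, the mean level of 10 luminal markers ranged from 2.89 to 3.96 over the BALB/c arrays and from 0.79 to 2.78 over the SPRET/EiJ arrays of 4 weeks. Of these 10 markers, 6 passed as higher in BALB/c in the joint fit (median of the list 1.78), beside 16.6% of all probes. Without the lymphocyte-rich SPRET/EiJ array 1 of them passed, Prlr (median 1.66, beside 20.2% of all probes). The mean of 9 basal markers ranged from 1.37 to 2.13 in BALB/c and from 0.51 to 1.59 in SPRET/EiJ, and 2 of them, Acta2 and Krt17, passed as higher in BALB/c in the joint fit. The part of the luminal and basal markers in the strain differences was not tested.

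**Figure D4:**
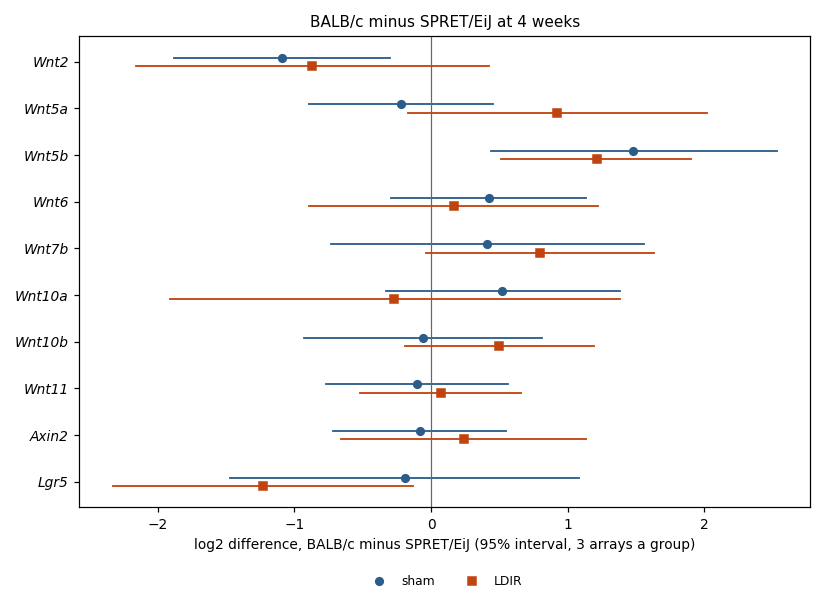
Difference between BALB/c and SPRET/EiJ at 4 weeks (horizontal axis, log2, above 0 is higher in BALB/c) for each of the 10 genes in sham (circles) and LDIR mice (squares), with 95% intervals from limma on 3 arrays a group. Wnt5b lay above 0 in both treatments, at 1.48 and 1.21.

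Of the 71 other pathway genes 6 were higher and 4 lower in BALB/c in the joint fit, 14.1% beside 16.6% of all probes. The ligand Wnt2b was well above background on 6 of 6 BALB/c and 0 of 6 SPRET/EiJ arrays. Against the lowest signal detected on an array it was 11.3-fold higher in BALB/c (limma, adjusted p = 1.69e-06). That ratio is not a lower limit, since undetected probes can lie above the lowest detected signal. The receptors Fzd10 (2.69, 6.46-fold, adjusted p = 3.40e-05), Fzd3 (1.47, 2.76-fold) and Fzd6 (1.12, 2.17-fold) were higher in BALB/c, and Fzd9 was lower (-2.20, adjusted p = 6.18e-04). Of the inhibitors, Dkk1, which blocks the coreceptors, was above background on 0 of 6 BALB/c and 6 of 6 SPRET/EiJ arrays. Against the lowest detected signal Dkk1 was 8.9-fold lower in BALB/c, which again is not a lower limit. Wif1 was 7.98-fold lower in BALB/c (-3.00, adjusted p = 2.29e-04). Rspo1, an R-spondin, was 3.12-fold higher in BALB/c (adjusted p = 0.00294), and of the further targets Apcdd1 was 2.99-fold higher and Cd44 2.12-fold lower (adjusted p = 0.00491 and adjusted p = 2.89e-05). Apcdd1 did not pass without the lymphocyte-rich SPRET/EiJ array (1.41). Slide and strain cannot be told apart for these genes either. The effect of sequence differences in SPRET/EiJ on their probes, among them that of Wnt2b, was not tested.

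Few of these genes differed between LDIR and sham mice, and over all probes 0 reached an adjusted p under 0.05 in limma in each of these comparisons (1098 to 3440 had an unadjusted p under 0.05 at the single times). At 2 weeks in BALB/c, 8 of 10 genes lay lower in LDIR than in sham mice (median -0.37, beside -0.02 over all probes). Some of the 10 genes vary together across arrays, and this count was not tested. Of the 10 genes 1 passed the thresholds, beside 3.05% of all probes. That gene was Wnt10a, at -3.00, -3.40 and -3.35 in LDIR and -2.97, -2.09 and -2.73 in sham mice, groups that did not overlap. Wnt10a fell by 0.66 on the log2 scale (SE 0.26, interval -1.29 to -0.02, adjusted p = 0.869). Deviations of same-lettered arrays correlated at 0.101 to 0.442 at this time, though the labels name no shared source. With the letter as a replicate block the value was -0.66 (adjusted p = 0.731) and did not pass. It did not pass without LDIR array B (-0.58) or C (-0.60) or without sham array B (-0.40) or C (-0.72) either.

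Axin2 (brightest probe at mm9 chr11:108812034-108812093) at 2 weeks measured -1.88, -1.73 and -1.88 in LDIR and -1.03, -1.24 and -1.56 in sham mice. The groups did not overlap and the brightest probe differed by -0.55 ± 0.18 (interval -0.99 to -0.12, adjusted p = 0.869), under 1.5-fold. The second Axin2 probe differed by -0.04 ± 0.18 (interval -0.47 to 0.38). Wnt11 was the third of 10 genes without overlap, beside 11.8% of all probes, at -1.59, -1.54 and -1.60 in LDIR and -1.27, -1.31 and -1.32 in sham mice (-0.28 ± 0.13, interval -0.59 to 0.03), a difference of 1.21-fold.

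At 4 weeks in BALB/c 1 of 10 genes passed, beside 4.83% of all probes. Lgr5 (mm9 chr10:114887403-114887462) measured -2.43, -3.48 and -2.61 in LDIR and -2.58, -1.51 and -1.35 in sham mice, with overlap (-1.02 ± 0.42, interval -2.04 to -0.01, adjusted p = 0.775). Krt14 and Krt5, 2 of 9 basal epithelial markers, also passed as lower in LDIR mice at this time, and the mean level of that list ranged from 1.37 to 1.83 in LDIR and from 1.78 to 2.13 in sham mice. Their part in the Lgr5 difference was not tested. Lgr5 did not pass when any of 4 arrays was left out, namely sham B (-0.87) or C (-0.79) or LDIR B (-0.70) or C (-1.14).

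At 8 weeks in BALB/c and at 4 weeks in SPRET/EiJ 0 of 10 genes passed in limma, beside 1.92% and 2.21% of all probes, and 0 had an unadjusted p under 0.05. The widest differences were -0.66 ± 0.61 for Wnt10a at 8 weeks and 0.74 ± 0.63 for Wnt10a in SPRET/EiJ. In SPRET/EiJ LDIR mice Wnt10a was -0.67 on array A and -2.75 and -2.95 on arrays B and C, so that 1 array made this mean. That array had a lymphocyte level of 3.09 (-2.11 and -1.30 on B and C), an adipocyte level of 4.49 (6.37 and 6.43) and a fibroblast level of 4.16 (5.52 and 5.63). Without it Wnt10a differed by 0.02 (adjusted p = 1). At 8 weeks, without the lymphocyte-rich arrays sham A and LDIR B, Wnt6 passed as lower in LDIR mice (-1.08, adjusted p = 0.951, 2 arrays a group), beside 4.35% of all probes. With 3 mice a group the intervals were wide, the narrowest at 8 weeks being that of Wnt10b (-1.02 to 0.39) and in SPRET/EiJ that of Wnt11 (-0.71 to 0.56).

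Over the 3 times together in BALB/c, 0 of 10 genes passed, beside 1.16% of all probes, and 0 had an unadjusted p under 0.05. Lgr5 came nearest, with a mean difference of -0.54 ± 0.27 (95% interval -1.11 to 0.04), and an exact permutation of treatment within times gave p = 0.0855 over 8000 arrangements. Without the 2 lymphocyte-rich arrays Lgr5 passed (-0.60, adjusted p = 0.611). For Axin2 the mean difference was -0.13 ± 0.17 (-0.49 to 0.24), for Wnt11 0.01 ± 0.15 (-0.30 to 0.32) and for Wnt10b -0.03 ± 0.18 (-0.42 to 0.35). LDIR and strain together showed 0 of 10 interactions at 4 weeks, beside 3.6% of all probes, with 0 at an unadjusted p under 0.05. Wnt5a came nearest, with an LDIR effect 1.14 ± 0.57 higher in BALB/c than in SPRET/EiJ (interval -0.11 to 2.39). Without the lymphocyte-rich SPRET/EiJ LDIR array A, where Wnt5a was 0.14 (1.42 and 1.12 on B and C), the value was 0.76. The difference between the LDIR effects of 4 and 2 weeks in BALB/c passed for 1 of 10 genes, Axin2, beside 3.66% of all probes, and did not with the replicate block.

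**Figure D5:**
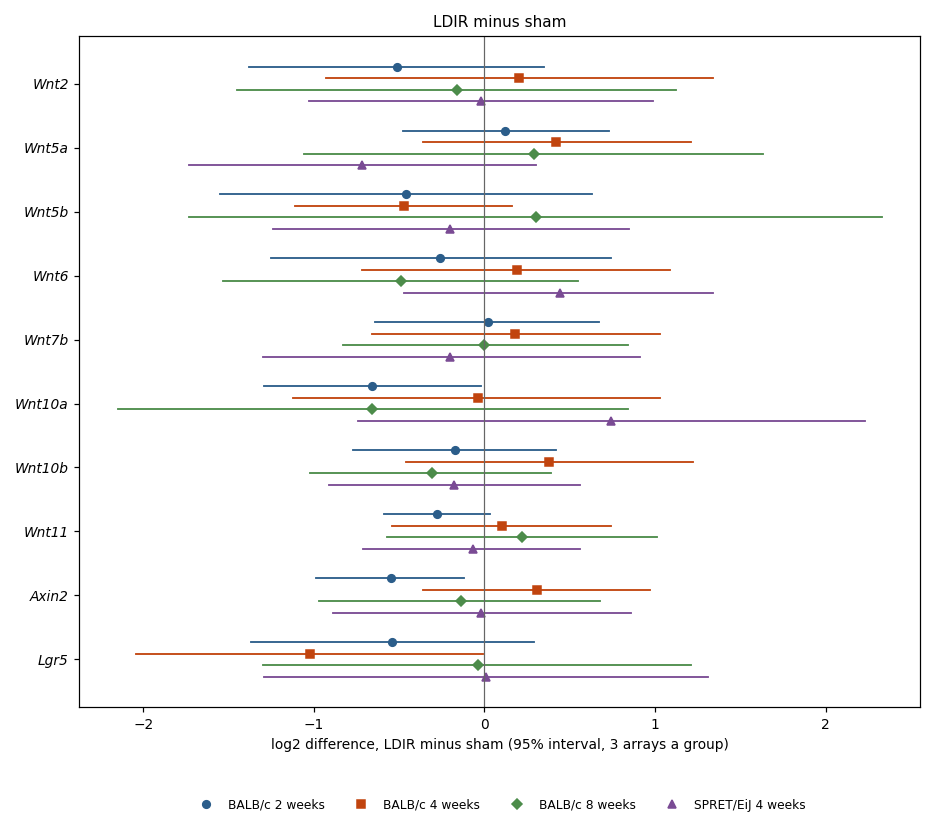
Difference between LDIR and sham mice (horizontal axis, log2) for each of the 10 genes in BALB/c at 2 (circles), 4 (squares) and 8 weeks (diamonds) and in SPRET/EiJ at 4 weeks (triangles), with 95% intervals from limma on 3 arrays a group. All intervals held 0 except those of Wnt10a and Axin2 at 2 weeks and Lgr5 at 4 weeks in BALB/c.

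After LDIR 0 of the 71 pathway genes passed at 2 weeks, 1 (1.41%) at 4 weeks and 2 (2.82%) at 8 weeks in BALB/c, and 1 (1.41%) in SPRET/EiJ. The shares of all probes were 3.05%, 4.83%, 1.92% and 2.21%. The 2 at 8 weeks were Wnt4, a ligand of progesterone response in the gland, which measured 2.16 ± 0.45 in sham and 1.01 ± 0.51 in LDIR mice (SD, n = 3) and fell by 1.15 (adjusted p = 1), and the receptor Fzd10, which fell by 0.63. At 4 weeks the receptor Fzd9 fell by 1.04, with overlap. The 1 gene in SPRET/EiJ, the inhibitor Dkk4, was above background on 1 of 3 LDIR and 0 of 3 sham arrays. None of these had an adjusted p under 0.05. Over the 3 times in BALB/c 1 of the 71 passed, Wnt4, lower by 0.80 (limma, adjusted p = 0.985), beside 1.16% of all probes. Without the lymphocyte-rich arrays sham A and LDIR B, 5 of 71 passed at 8 weeks (7.04%, beside 4.35% of all probes). Wnt4, Fzd10, Frzb and Myc were lower there and Lef1 was higher. Without the lymphocyte-rich array in SPRET/EiJ, Dkk4 and Sp5 passed as higher (2.82%, beside 3.77% of all probes).

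Finally, the 10 genes were compared with each other over the 24 arrays as deviations from their group means, so that strain, time and treatment do not enter. Of 45 pairs, 7 had a Benjamini-Hochberg adjusted permutation p under 0.05 for Pearson r, all of them positive. By rank correlation 1 of these, Wnt5a with Wnt7b, did not reach it (adjusted permutation p = 0.148). Wnt7b with Wnt10b reached it by rank only (adjusted permutation p = 0.0247, and 0.0733 for r). The share of such pairs over all probes was not counted. The part of the cell type markers in these correlations was not tested. Wnt6 and Wnt10a correlated at r = 0.63 (permutation p = 0.0046, adjusted 0.0345) and rho = 0.69 (permutation p = 4.70e-04, adjusted 0.0128). Without the 2 arrays farthest from the Wnt6 median r was 0.57, and on the 3 slides apart it was 0.40, 0.70 and 0.77. Without the 3 lymphocyte-rich arrays, with deviations taken anew over the other 21, r was 0.54 and rho was 0.58.

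A second set of pairs joined Wnt2, Wnt5a, Wnt5b, Wnt7b, Wnt10b and Lgr5. Wnt5a and Lgr5 correlated at r = 0.77 (permutation p = 0.00133, adjusted 0.0241) and rho = 0.71 (permutation p = 0.00248, adjusted 0.0245), with r = 0.71 without the 2 farthest arrays and 0.15, 0.83 and 0.95 on the slides. Wnt7b and Lgr5 gave r = 0.76 (permutation p = 7.80e-04, adjusted 0.0241) and rho = 0.75 (permutation p = 5.70e-04, adjusted 0.0128), with 0.69 without the 2 farthest and 0.61, 0.69 and 0.85 on the slides. Wnt2 and Wnt5a gave r = 0.76 (permutation p = 0.00161, adjusted 0.0241) and rho = 0.69 (permutation p = 0.00353, adjusted 0.0247), with 0.66 without the 2 farthest and 0.57, 0.69 and 0.92 on the slides. The 3 lymphocyte-rich arrays, none of them on the first slide, were the 3 lowest in Wnt5a (-0.02, 0.18 and 0.14), with Lgr5 at -2.70, -2.76 and -2.47. Over the other 21 arrays r was 0.58 and rho 0.36 for Wnt5a and Lgr5, and r was 0.63 and rho 0.46 for Wnt2 and Wnt5a. For Wnt7b and Lgr5 r was 0.80 and rho 0.74 there.

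The genes whose levels ran most like those of a member were sought over the 18 BALB/c arrays among 16610 named genes above background on all of them, the 2 highest r for each. Being the highest of many, these values are a description. Wnt5b was most like Sox10 (r = 0.97) and BC021891 (0.97), Wnt10a most like Eri1 (0.95) and Dek (0.94), and Wnt6 most like Mpp6 (0.92) and Hnrnpa0 (0.91). Wnt2 was most like Itgav (0.91) and Ptplad2 (0.91), Wnt5a most like Ccdc68 (0.88) and Runx1t1 (0.87), and Wnt10b most like Ptgis (0.89) and Qpct (0.88). For Wnt7b the genes were Cpt1c (0.87) and Hspa1a (0.86), and for Wnt11 they were Dact1 (0.86) and Ak8 (0.86). Axin2 was most like Ptprj (0.84) and Sgpp1 (0.84), and Lgr5 most like Pmepa1 (0.85) and Slc29a1 (0.84). The 18 arrays include the 8-week groups, so these values carry the differences between times. Without the 2 lymphocyte-rich arrays among them the r of these pairs was lower for Wnt5a (0.77 and 0.74), Wnt2 (0.85 and 0.85) and Wnt11 (0.81 and 0.76).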

How the data were processed

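RNA from the mammary glands of 24 mice was hybridised, with 1 array for each mouse. The deposited scanner files (Agilent Feature Extraction 10.10.1.1) hold intensity values that the scanner software had corrected for background and spatial trend. The authors also deposited log2 values scaled to the 75th percentile, used here as an alternative (with each probe centred, 99.81% of them lay within 0.01 of those used). The 3777 outlier spots over all arrays were left out, spots of a probe were averaged, and the 75th percentile of its array was taken from each log2 intensity. Probe coordinates are those of the files (mm9). Precision is limited by the 3 arrays of a group.

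Each comparison was a fit in limma 3.58.1 (R 4.3.3) to its own arrays, with Benjamini-Hochberg adjustment over all probes and the thresholds of the methods on unadjusted p. A gene passed where it met both p and fold. Intervals are 95% intervals of the fit. Exact permutation tests were two-sided, and correlations used two-sided resampling within groups, with 100000 draws. Figures were drawn with matplotlib 3.10.9. The fits were tested on simulated data.

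The 10 genes are named in every comparison through their brightest probe (highest mean of the 24 arrays). From each pathway list at most 3 genes that passed are named in each direction, by size. Marker lists covered luminal and basal epithelium, fibroblasts, white and brown adipocytes, lymphocytes, skeletal muscle, epidermis, hair follicle, endothelium and hormone response. The members, lists and tests were chosen with earlier results of these data known. Added after seeing the data were 8 against 4 weeks in LDIR mice, both joint fits, the LDIR effect at 4 against 2 weeks, the 24-array fit with slide, the second slide alone, and the results without the 3 lymphocyte-rich arrays. Other alternatives changed the background correction (normexp, offset 50), the normalization (quantile), the use of outlier spots or dim probes, the test (the methods' t-test), the block (replicate letter or slide), the arrays in the fit, or the probe that stands for a gene, or left out each array.

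The groups share the letters A, B and C. Between LDIR and sham at 2 weeks, the deviations of same-lettered arrays correlated at 0.141 for A, 0.442 for B and 0.101 for C. Each exceeded 0.1, so a fit with the letters as pairs is given there beside the unpaired fit, from which the intervals and calls come. The labels name no shared source. In the other 8 pairs of groups at least 1 letter stayed at or below 0.1, and single values ran from -0.567 to 0.544. The values at 2 weeks lie within that range and do not establish that the letters are pairs.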

Additional observations from a re-analysis of the deposited data

Results flagged for a closer look

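The difference between the LDIR effects on Axin2 in BALB/c at 4 and 2 weeks met the thresholds on its brightest probe, without an adjusted p under 0.05. The effect at 4 weeks was higher by 0.86 (log2, SE 0.34, 95% interval 0.12 to 1.61, limma, adjusted p = 0.999), with -0.55 at 2 weeks and 0.31 at 4 weeks. The second Axin2 probe gave 0.49 ± 0.47 (interval -0.56 to 1.54). Leaving out each array in turn gave differences of 0.63 to 1.13, of which 5 of 12 met the thresholds. It did not meet them with the replicate block (0.86), with a slide term (0.68), over all 24 arrays (0.86, or 0.68 once slide was added) or as the mean of detected probes (1.13). This comparison was chosen after the values at each time were seen.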

How the results depend on the processing

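Over 14 comparisons the 10 genes gave 16 calls, and none reversed under any alternative run: of 309 recomputed values 252 stayed past the thresholds and 57 fell short in the same direction. Of 2391 recomputed values of the uncalled genes, 35 passed, 0 of them in the opposite direction. The count of genes called after LDIR in BALB/c was 1 at 2 weeks and 1 at 4 weeks, and 0 at either time with normexp background correction, the methods' t-test, the replicate block, or all 24 arrays with or without slide. With single arrays left out it was 0 to 2 at both times, and 0 to 1 at 8 weeks, over the 3 times, for the strain interaction and for 4 against 2 weeks in sham mice. Without the 2 lymphocyte-rich arrays it was 1 at 8 weeks (Wnt6) and 1 over the 3 times (Lgr5). The strain count in LDIR mice was 1 in place of 0 with normexp (Wnt5b), and that of both treatments was 0 in place of 1 with the replicate block and with all 24 arrays with or without slide. At 8 against 4 weeks in LDIR mice the count was 2 with the methods' t-test (Wnt10a and Wnt10b) and 0 with slide as a block, alone or over 24 arrays, in place of 5. The 1 difference between the LDIR effects of 4 and 2 weeks was 0 with the replicate block, slide as a block, 24 arrays with or without slide and the mean of detected probes, and 0 to 1 with single arrays left out. The cause was not tested. Over all probes the median difference was -0.21 at 8 against 4 weeks in LDIR mice and -0.14 between LDIR and sham at 8 weeks, and -0.04 and 0.01 after quantile normalization. The replicate block changed no other count of calls by over 1.5 times. Slide as a block could not be fitted within the LDIR arrays of the strains, at 2 weeks or within SPRET/EiJ, where it held 1 group or 1 slide. Probes not well above background, among them the second Lgr5 probe, gave no level.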

Other observations

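Among the marker lists, lymphocyte markers had a median change of 1.39 between 4 and 8 weeks in BALB/c (sham and LDIR together), and 2 of 7, Ms4a1 and Cd79a, passed as higher. Of the 6 arrays of 8 weeks 2 carried this, with list means of 3.15 and 3.61, while the other 4 lay between -2.26 and -1.81, beside -2.35 to -1.69 at 4 weeks. Without these 2 arrays the median change was -0.16, with Ms4a1 higher and Cd3e lower. Of 4 brown adipocyte genes, 3 passed as lower (Cox8b, Elovl3 and Cidea, median of the list -1.97), and without the same 2 arrays 1 did, Cox8b (median -1.23). Of 6 genes of the hormone response, Areg and Pgr passed as lower and Calca as higher. Of 4 endothelial genes, 1 passed, Kdr, which was lower. Of 8 fibroblast genes, 1 passed, Dcn, which was lower, and without the 2 arrays 1 passed as higher, Col1a1. Beside these counts, 18.7% of all probes passed in this fit and 21.2% without the 2 arrays.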
